A study of Mus musculus with 19 samples.

Results

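The pyruvate dehydrogenase complex and the enzymes that switch it off and on were followed at the transcript level in mouse gastrocnemius, a calf muscle. The 10 genes are the kinases Pdk1, Pdk2, Pdk3 and Pdk4, the phosphatases Pdp1 and Pdp2, and the subunit genes Pdha1, Pdhb, Dlat and Pdhx, taken by gene symbol from the 54176 genes of the deposited count table. All 10 passed the filter on low counts, as did 17028 genes in all. The mice were of the FVB strain and were either wild type (WT) or transgenic for mCK-hLPL, in which the muscle creatine kinase promoter, active in striated muscle, drives human lipoprotein lipase. Muscle was taken from animals that were maintaining a lost weight (WLM) or that had been refed for 24 hours (REL). This gave 5 libraries in each of the groups WT_WLM, mCK-hLPL_WLM and mCK-hLPL_REL, and 4 in WT_REL. All 4 groups share the preceding weight loss, and there is no group that never lost weight. The sources used here do not give age, sex or the way weight was lost. Whether each library is a different animal is not stated either, and p-values therefore describe the scatter among these libraries alone.

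The pyruvate dehydrogenase complex sits in the mitochondrial matrix and turns pyruvate, the end product of glycolysis, into acetyl-CoA. The kinases phosphorylate the alpha subunit of its decarboxylase and stop the reaction, which spares glucose while fat is burned, and the phosphatases remove the phosphate and restart it. In skeletal muscle Pdk4 is known as the isoform whose transcript accumulates in fasting and declines on refeeding, while Pdk2 is a more constantly expressed isoform.

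Total counts per library ran from 35595030 to 51073355. The transgene has no entry in the table, so genotype was taken from the labels without a check at the transgene. The skeletal muscle markers were the most abundant of the 11 marker lists examined: their 8 genes summed to between 137558 and 170164 CPM (counts scaled to a common library size) over the WLM libraries and to between 108685 and 157664 CPM over the REL libraries. Several libraries stood apart. The lymphocyte markers other than Ighm and Jchain, 7 genes, summed to 30.2 to 38.6 CPM in WT_WLM replicates 1 and 5 and mCK-hLPL_WLM replicate 3, against 0.215 to 2.99 CPM in the other 16 libraries. The 8 liver markers summed to 77.1 to 165 CPM in WT_REL B, mCK-hLPL_REL replicate 4 and mCK-hLPL_REL replicate 5, against 1.08 to 33.4 CPM in the other 16. The letters A and B stand for the pair of WT_REL libraries whose column numbers do not settle which labelled sample they are. For the 10 genes, the calls below that are lost or gained without either set are named where they are given. For the markers and other genes named below, the fits without these sets are not given.

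The promoters of Pdk4 and Pdk2, the most abundant kinase transcripts and both lower after refeeding, are shown to set their sequences side by side. Each is RefSeq's window of 250 bases before to 50 bases after the gene start on build GRCm38.p6, read on the gene's minus strand, with capitals for matches, on either strand, to the motifs searched: CCAAT, the E-box CACGTG, the FOXO core GTAAACA and the nuclear receptor hexamer AGGTCA.
Pdk4 (chr6:5496229-5496528): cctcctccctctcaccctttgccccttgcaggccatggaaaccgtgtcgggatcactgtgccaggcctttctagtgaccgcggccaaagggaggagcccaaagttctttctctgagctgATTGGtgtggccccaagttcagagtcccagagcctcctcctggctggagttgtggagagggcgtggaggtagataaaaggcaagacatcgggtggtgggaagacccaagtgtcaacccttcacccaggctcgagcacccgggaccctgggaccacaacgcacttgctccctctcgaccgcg
Pdk2 (chr11:95041322-95041621): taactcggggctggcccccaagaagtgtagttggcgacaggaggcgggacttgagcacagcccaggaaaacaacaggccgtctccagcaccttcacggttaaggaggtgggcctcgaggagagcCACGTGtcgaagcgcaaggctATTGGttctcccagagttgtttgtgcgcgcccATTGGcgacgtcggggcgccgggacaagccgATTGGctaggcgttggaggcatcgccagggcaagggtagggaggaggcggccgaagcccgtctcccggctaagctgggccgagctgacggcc
The Pdk4 window holds CCAAT once, read on the opposite strand as ATTGG, at position -131 from the start. The Pdk2 window holds it at -105, -73 and -42, and an E-box at -126. Promoter sequences were matched for 9 of the 10 genes. CCAAT was found in 6 of these 9 (Pdk2, Pdk3, Pdk4, Pdp2, Pdhb and Pdhx), against 37.4% of the 32851 promoters in the RefSeq table, and CACGTG in 2 of 9 (Pdk2 and Pdp2), against 7.15%. GTAAACA was in 0 of 9 and 3.65% of all promoters, and AGGTCA in 0 of 9 and 16.3%. These are matches of letters in a short window of the reference strain, not binding sites, and no match overlaps another in the printed sequences.

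Pdk4 was the most variable of the 10 transcripts and fell on refeeding. In WT_WLM its level was 1068, 498, 1108, 756 and 966 CPM in replicates 1 to 5, and in mCK-hLPL_WLM it was 746, 537, 565, 1019.9 and 711 CPM. In WT_REL it was 152 and 387 CPM in replicates 1 and 2, 516 CPM in A and 142 CPM in B. In mCK-hLPL_REL it was 317, 360.3, 220.0, 657 and 252 CPM in replicates 1 to 5. WT_REL A was the only WT_REL library above any WT_WLM library, passing WT_WLM replicate 2, and mCK-hLPL_REL replicate 4 was the only refed mCK-hLPL library inside the range of mCK-hLPL_WLM. The group means were 879 ± 253 CPM (SD, n = 5) in WT_WLM, 716 ± 192 CPM (n = 5) in mCK-hLPL_WLM, 299 ± 184 CPM (n = 4) in WT_REL and 361 ± 174 CPM (n = 5) in mCK-hLPL_REL.

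In WT mice Pdk4 fell by 1.56 ± 0.38 on the log2 scale (SE), a 2.94-fold lower level, with an adjusted p of 0.0258 (edgeR's quasi-likelihood test, Benjamini-Hochberg over all genes tested, threshold 0.05). It was the only one of the 10 called in WT, where 2.25% of all genes tested were called lower, 2.63% higher and 4.88% in either direction. The call was lost without WT_WLM replicate 1 (-1.48, edgeR adjusted p = 0.0539), WT_WLM replicate 3 (-1.46, 0.0611), WT_REL replicate 1 (-1.34, 0.0952) or WT_REL B (-1.32, 0.0943). It was also lost without the 3 libraries with lymphocyte transcripts (-1.41, edgeR adjusted p = 0.112) and without the 3 with most liver transcripts (-1.32, 0.0546). In mCK-hLPL mice the difference was -0.99 ± 0.35 (edgeR adjusted p = 0.086), which did not pass, and it passed without mCK-hLPL_REL replicate 4 (-1.32, edgeR adjusted p = 0.0222) or without the 3 libraries with most liver transcripts (-1.26, 0.0357). With both genotypes averaged, Pdk4 fell by 1.27 ± 0.26 (edgeR adjusted p = 0.00204), 2.41-fold lower, and it passed whichever of the 19 libraries was left out (adjusted p between 0.000571 and 0.00582).

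**Figure D1:**
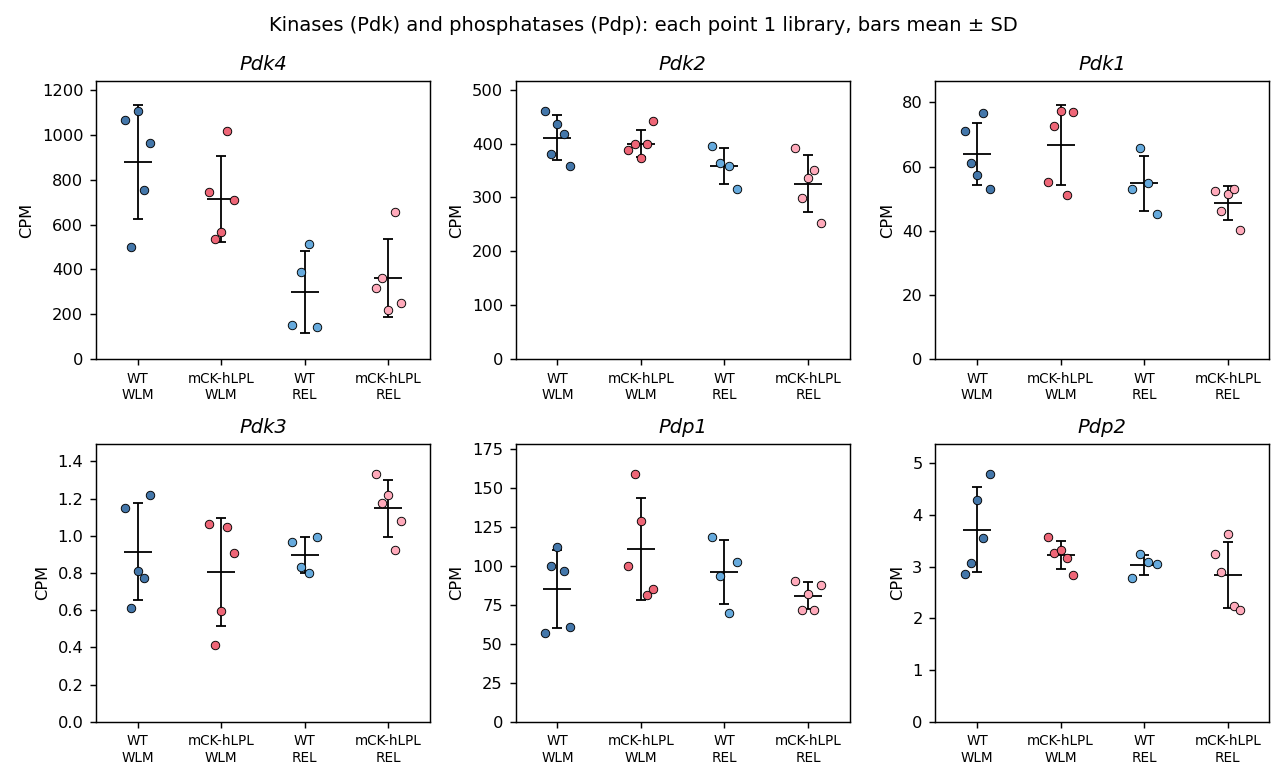
Transcript level in CPM (vertical axes from 0, one panel per gene) of the 4 kinases and 2 phosphatases in the 4 groups, each point a library and each bar a group mean with its SD. Pdk4 has means of 879 and 716 CPM in weight loss maintenance against 299 and 361 CPM after refeeding, with 1 library of each refed group reaching the range of its unrefed group.

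Pdk2 and Pdk1 fell by less. Pdk2 was at 461, 381, 437, 417 and 358 CPM in WT_WLM and at 388, 399, 374, 398 and 441 CPM in mCK-hLPL_WLM. After refeeding it was at 396, 365, 358 and 315 CPM in WT_REL (replicates 1 and 2, A and B) and at 392, 299, 335, 350.4 and 253 CPM in mCK-hLPL_REL. The WT groups overlapped in all but 1 refed library, B, while 4 of 5 mCK-hLPL_REL libraries lay below every mCK-hLPL_WLM library. The difference averaged over genotypes was -0.25 ± 0.08 (edgeR adjusted p = 0.0265). That call was lost without WT_WLM replicate 1 (-0.22, edgeR adjusted p = 0.0524), mCK-hLPL_WLM replicate 5 (-0.23, 0.0524) or WT_REL B (-0.21, 0.068), and without the 3 libraries with most liver transcripts (-0.18, 0.0958). Within a genotype Pdk2 did not pass (WT -0.20 ± 0.11, mCK-hLPL -0.30 ± 0.10, edgeR adjusted p = 0.33 and 0.0812), although leaving out mCK-hLPL_REL replicate 1 gave -0.37 and 0.0312 in mCK-hLPL and DESeq2's adjusted p there was 0.0394.

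Pdk1, the kinase known as a target of hypoxia signalling, was at 71.1, 61.1, 57.5, 76.6 and 53.0 CPM in WT_WLM and at 55.3, 72.5, 77.4, 51.2 and 76.9 CPM in mCK-hLPL_WLM. It was at 52.9, 65.9, 54.9 and 45.3 CPM in WT_REL and at 52.2, 46.2, 51.4, 53.1 and 40.3 CPM in mCK-hLPL_REL. The refed and unrefed groups overlapped in both genotypes, in mCK-hLPL through WLM replicate 4. In mCK-hLPL mice Pdk1 fell by 0.45 ± 0.13 on the log2 scale (edgeR adjusted p = 0.0414), and Pdha1 was the other member called there. That made 2 of 10 called lower and none higher, where 4.03% of all genes tested were called lower, 4.11% higher and 8.15% in either direction. The Pdk1 call was lost in 9 of 19 leave-one-out fits, with adjusted p up to 0.116: those without WT_WLM replicate 2, mCK-hLPL_WLM replicates 2, 3 or 5, WT_REL 1 or A, or mCK-hLPL_REL replicates 2, 3 or 5. Its difference in those fits was -0.39 to -0.47. It was also lost without the 3 libraries with lymphocyte transcripts (-0.40, edgeR adjusted p = 0.118) and without the 3 with most liver transcripts (-0.41, 0.0831). Averaged over genotypes it fell by 0.34 ± 0.10 (edgeR adjusted p = 0.0186), a call lost without WT_REL B (-0.29, 0.0551) and without the 3 libraries with most liver transcripts (-0.27, 0.0767).

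Pdk3, known mainly from tissues other than muscle, was close to the detection limit, with 16 to 67 counts in a library. Its levels lay between 0.412 and 1.34 CPM, and the difference on refeeding was -0.02 ± 0.25 in WT and 0.51 ± 0.24 in mCK-hLPL (edgeR adjusted p = 0.975 and 0.197), neither of which passed.

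The phosphatases did not change past the threshold on refeeding in any of the 3 comparisons. Pdp1, the calcium-stimulated isoform of muscle, was at 57.2, 99.7, 112, 96.5 and 60.5 CPM in WT_WLM and at 99.7, 159, 129, 81.2 and 84.9 CPM in mCK-hLPL_WLM. It was at 118, 93.6, 69.8 and 103 CPM in WT_REL and at 90.3, 71.7, 82.2, 71.9 and 87.5 CPM in mCK-hLPL_REL. The highest 2 values were mCK-hLPL_WLM replicates 2 and 3, and the lowest was WT_WLM replicate 1. The refeeding difference was 0.17 ± 0.21 in WT and -0.46 ± 0.20 in mCK-hLPL (edgeR adjusted p = 0.703 and 0.171). Pdp2, which does not need calcium, lay between 2.16 and 4.80 CPM, with a difference of -0.24 ± 0.11 averaged over genotypes (edgeR adjusted p = 0.14).

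Among the subunits, Pdha1 moved and the others did not pass. Pdha1 encodes the alpha subunit of the decarboxylase, the protein that the kinases phosphorylate. It was at 463, 409, 433, 478 and 405 CPM in WT_WLM, at 393, 438, 461, 404 and 480 CPM in mCK-hLPL_WLM, at 400.0, 419, 377 and 325 CPM in WT_REL, and at 371, 335, 349.8, 370.3 and 340.4 CPM in mCK-hLPL_REL. All 5 mCK-hLPL_REL libraries lay below the lowest mCK-hLPL_WLM library, while in WT only REL replicate 2 reached the range of the WLM group. In mCK-hLPL it fell by 0.30 ± 0.08 (edgeR adjusted p = 0.0289), a call lost in 6 of 19 leave-one-out fits (-0.26 to -0.30, adjusted p up to 0.0905), those without mCK-hLPL_WLM replicates 2, 3 or 5 or mCK-hLPL_REL replicates 2, 3 or 5. It was also lost without the 3 libraries with lymphocyte transcripts (-0.28, 0.103). In WT the difference was -0.20 ± 0.09 (edgeR adjusted p = 0.184), which did not pass. Averaged over genotypes it fell by 0.25 ± 0.06 (edgeR adjusted p = 0.00552), and this passed whichever library was left out (0.00434 to 0.0184).

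Pdhb, the beta subunit of the decarboxylase, lay between 134 and 201 CPM, with a difference of -0.11 ± 0.06 averaged over genotypes (edgeR adjusted p = 0.234). In mCK-hLPL it was -0.16 ± 0.09, and it passed only without the 3 libraries with most liver transcripts (-0.28, edgeR adjusted p = 0.0472). Dlat, the acetyltransferase core, and Pdhx, which ties the dihydrolipoamide dehydrogenase to that core, were the steadiest transcripts. Dlat ranged from 91.8 to 112 CPM over the 19 libraries and Pdhx from 48.7 to 59.4 CPM, with averaged differences of 0.01 ± 0.05 and 0.00 ± 0.05 (edgeR adjusted p = 0.914 and 0.995). The highest library of each was 1.22-fold above its lowest, whereas for Pdk4 that ratio was 7.82.

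**Figure D2:**
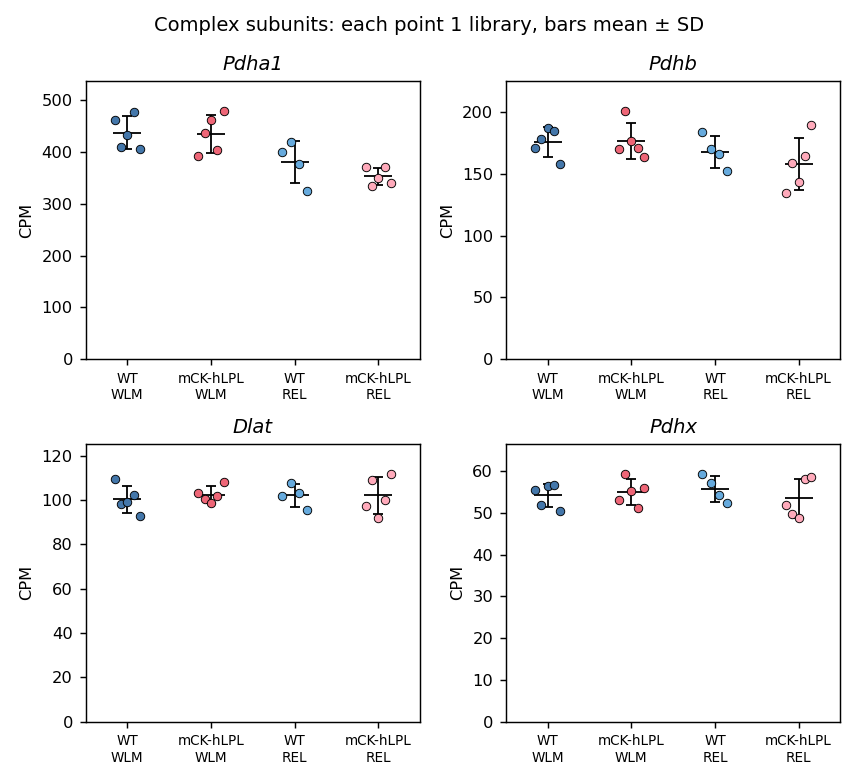
Transcript level in CPM (vertical axes from 0) of Pdha1, Pdhb, Dlat and Pdhx in the 4 groups, each point a library and each bar a group mean with its SD. Pdha1 averages 438 and 435 CPM in weight loss maintenance and 380 and 353 CPM after refeeding, while Dlat stays between 91.8 and 112 CPM throughout.

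Averaged over genotypes, 4 of the 10 genes (Pdk4, Pdha1, Pdk1 and Pdk2) were called lower and none higher, against 9.98% of all genes tested called lower, 10.7% higher and 20.7% in either direction. The median log2 difference of the 10 was -0.19, against 0.00 over all genes. The same medians were -0.13 in WT and -0.24 in mCK-hLPL, against 0.00 and 0.01 over all genes. Markers of other cells differed between the phases as well. Averaged over genotypes, 6 of 6 erythroid, 5 of 8 fibroblast, 4 of 8 Schwann cell and 3 of 8 endothelial markers were called higher. Of the lymphocyte markers 8 of 9 were called lower and 1 higher, and of the skeletal muscle markers 3 of 8 lower. Of the slow-fibre markers, a separate list that the covariate below does not hold, 1 of 8 was called lower. Their sums averaged 2574 CPM in WT_WLM and 2442 CPM in WT_REL, and 2412 CPM in mCK-hLPL_WLM and 1846 CPM in mCK-hLPL_REL. The 3 libraries with lymphocyte transcripts were all in WLM. The 9 lymphocyte markers together had higher mean sums in REL, 363 CPM in WT and 348 CPM in mCK-hLPL, against 281 and 224 CPM in WLM. The erythroid markers summed to 497 to 1694 CPM in WT_WLM, 870.2 to 3109 CPM in mCK-hLPL_WLM, 1017 to 4482 CPM in WT_REL and 1775 to 11655 CPM in mCK-hLPL_REL. With the summed muscle markers as a covariate, the averaged differences were -0.88 for Pdk4 (edgeR adjusted p = 0.0575), -0.14 for Pdha1 (0.21), -0.17 for Pdk1 (0.429) and -0.16 for Pdk2 (0.334). The muscle markers themselves had a median log2 difference of -0.13 on refeeding averaged over genotypes, with 0 of 8 called in WT and 2 of 8 called lower in mCK-hLPL, and their sums overlapped between the phases. In bulk samples fewer cells of a type and less RNA per cell cannot be told apart. The summed muscle markers averaged 152089 CPM in WT_WLM and 152365 CPM in mCK-hLPL_WLM, against 133801 CPM in WT_REL and 127429 CPM in mCK-hLPL_REL. With that sum as covariate the 4 differences kept their direction and none passed. The part of the muscle markers or of the other markers in these results was not tested.

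**Figure D3:**
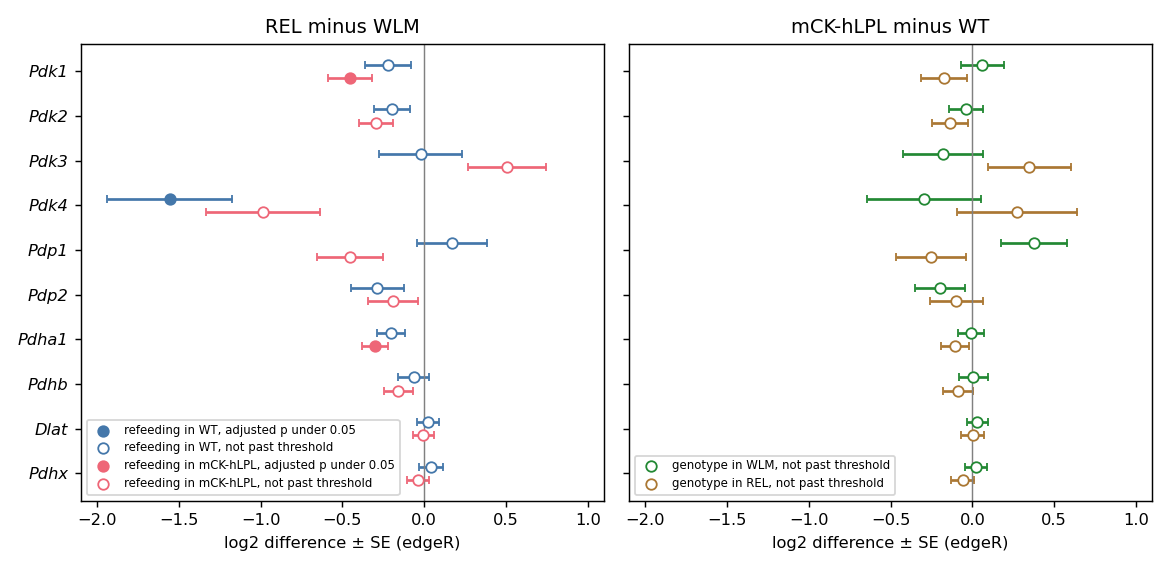
Log2 difference (horizontal axes) of the 10 genes on refeeding in each genotype (left, REL minus WLM) and between genotypes in each phase (right, mCK-hLPL minus WT), with bars for the SE and filled points for an edgeR adjusted p under 0.05. On the left Pdk4 lies at -1.56 in WT and -0.99 in mCK-hLPL, farther from 0 than the other 9 genes, and on the right no point is filled.

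No member passed a test of genotype. In weight loss maintenance, after refeeding, and averaged over both, 0 of 10 were called by edgeR, DESeq2 or limma voom, where edgeR called 0.0294%, 0.0117% and 0.211% of all genes. None of the 10 had an unadjusted edgeR p under 0.05 in these comparisons, against 4.86%, 4.36% and 6.77% of all genes. The Pdk4 genotype difference was -0.30 ± 0.35 in weight loss maintenance and 0.27 ± 0.37 after refeeding, each smaller than its standard error. The change of the refeeding difference with genotype, the interaction, was called for 0 of 10 members and for 0% of all genes, and was 0.57 ± 0.51 for Pdk4 (edgeR adjusted p = 0.9998). The interaction of Pdp1, at -0.63 ± 0.29 (edgeR adjusted p = 0.9998), was the only one of the 10 with an unadjusted edgeR p under 0.05, as 2.37% of all genes had. Thus Pdk4 passed in WT and not in mCK-hLPL, and Pdk1 and Pdha1 the other way round, but the interaction passed for none of them.

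Per kilobase of merged exon, the scale on which genes can be set against each other, Pdk4 (165 ± 88.1 CPM per kilobase, SD, n = 19), Pdk2 (118 ± 16.1) and Pdha1 (108 ± 12.8) had the highest levels over all libraries. The order changed between groups: Pdk4 was at 250.4 ± 72.0 in WT_WLM and 204 ± 54.8 in mCK-hLPL_WLM, above Pdk2 (129.9 ± 13.1 and 126 ± 7.94) and Pdha1 (117 ± 8.60 and 117 ± 9.88). In WT_REL Pdk4 averaged 85.2 ± 52.3, below Pdk2 (113 ± 10.5) and Pdha1 (102 ± 10.9) but within its own SD of both, and in mCK-hLPL_REL it was 103 ± 49.6 beside 103 ± 16.6 for Pdk2 and 94.6 ± 4.52 for Pdha1. By the longest transcript in place of merged exons, over all libraries, Pdk2 and Pdk4 changed places at 167 and 166. By that length Pdk2 was at 140 to 176 in WT_REL and 113 to 174 in mCK-hLPL_REL. Pdk4 was then at 40.7 to 148 and 63.1 to 189. The order within groups, the kinase sums and the shares given here are by merged exons and depend on that choice. By merged exons over all libraries, Pdhb followed at 43.9 ± 4.22. Dlat at 20.8 ± 1.15 and Pdp1 at 20.6 ± 5.48 came next and did not differ beyond their spread. Pdhx was at 13.9 ± 0.847 and Pdk1 at 7.54 ± 1.47. Pdp2 at 0.565 ± 0.108 and Pdk3 at 0.368 ± 0.094 were lowest. The 4 kinases summed to 389 ± 79.6 CPM per kilobase in WT_WLM (n = 5), 339 ± 55.5 in mCK-hLPL_WLM (n = 5), 206 ± 55.0 in WT_REL (n = 4) and 213 ± 57.3 in mCK-hLPL_REL (n = 5). Pdk4 made up 63.4 ± 7.06%, 59.3 ± 6.14%, 38.5 ± 14.8% and 46.8 ± 9.83% of that sum in the same order, and Pdk2 34.3%, 37.9%, 57.7% and 49.97%. The mean share of Pdk4 was the higher in both unrefed groups and that of Pdk2 in both refed groups, in mCK-hLPL_REL by less than the SD. Among the phosphatases Pdp1 made up 96.4% to 97.6% in every group. Kinase over phosphatase transcripts averaged 21.7 ± 9.32 in WT_WLM, 14.8 ± 6.02 in mCK-hLPL_WLM, 10.1 ± 4.87 in WT_REL and 11.8 ± 4.17 in mCK-hLPL_REL, a description with no test. Transcript ratios say nothing of enzyme amounts or activity. Pdha1 over Dlat averaged 5.71 ± 0.26 in WT_WLM and 5.56 ± 0.459 in mCK-hLPL_WLM against 4.87 ± 0.312 in WT_REL and 4.56 ± 0.52 in mCK-hLPL_REL. Pdha1 over Pdhb averaged 2.58 ± 0.19, 2.56 ± 0.308, 2.34 ± 0.152 and 2.35 ± 0.372 in the same order, lower in both refed groups, and Pdhx over Dlat lay between 0.652 and 0.679. These ratios too were not tested.

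**Figure D4:**
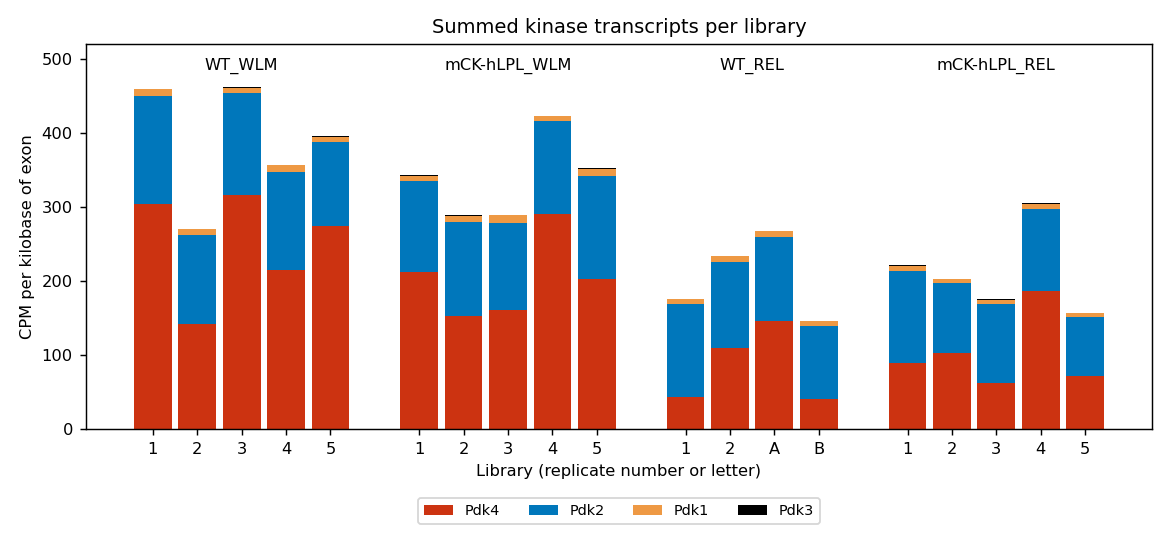
Summed kinase level in CPM per kilobase of merged exon (vertical axis from 0) in each library, stacked by kinase. The Pdk4 part averages 63.4% and 59.3% of the stack in the unrefed groups and 38.5% and 46.8% in the refed ones.

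Within groups, 5 of 45 pairs of members varied together past an adjusted p of 0.05 by Pearson's r, and 4 also by Spearman's rho (deviations from the group mean of log2 CPM over 19 libraries, permutation p with 100000 draws within groups, Benjamini-Hochberg over the 45 pairs). Pdk1 and Pdha1 had r = 0.874 (permutation p = 0.00012, adjusted 0.0054) and rho = 0.896 (permutation p = 6e-05, adjusted 0.0027), and r = 0.899 without the 2 libraries farthest from the median of Pdk1. Within WLM their r was 0.919 over 10 libraries and within REL 0.83 over 9. Pdhb and Pdhx had r = 0.76 and rho = 0.758 (adjusted permutation p = 0.0264 and 0.0225), and Pdk2 and Pdha1 r = 0.62 and rho = 0.656 (the same adjusted p). Pdk3 and Pdhb moved oppositely, with r = -0.595 and rho = -0.665 (0.0264 and 0.0225), at very low Pdk3 counts. Pdk4 and Pdp1 had r = -0.588 (adjusted permutation p = 0.042) and rho = -0.593 (0.0703), and r = -0.527 without the 2 farthest libraries. The points share the scaling of 1 table and the cell makeup of each sample, and the part of these was not tested.

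**Figure D5:**
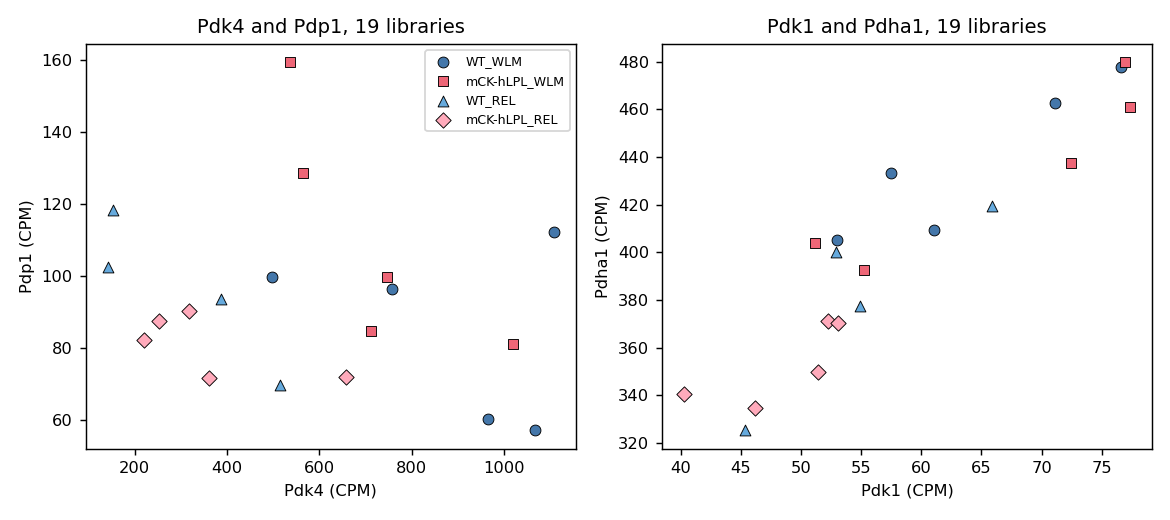
Level in CPM of Pdp1 against Pdk4 (left) and of Pdha1 against Pdk1 (right), each point a library with its group given by colour and shape, on axes that do not start at 0. The levels are plotted as they are, so they also hold the differences between groups, which the correlations of deviations leave out (r = -0.588 and 0.874).

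By the root mean square distance between centred log2 CPM over the 19 libraries, the 5 genes most like Pdk4 were Ucp3 (0.299, against 0.89 for Pdk4's own spread), Fbxo32 (0.337), Fhl3 (0.457), Plin5 (0.461) and Slc25a34 (0.475). Ucp3 is a mitochondrial carrier of muscle, Fbxo32 a ubiquitin ligase of muscle wasting and Plin5 a lipid droplet protein. All 5 were called lower on refeeding averaged over genotypes, from -0.81 ± 0.14 for Fhl3 to -1.61 ± 0.13 for Slc25a34 (edgeR adjusted p = 0.000602 and 5.43e-07). Likeness and refeeding difference come from the same libraries, so neither supports the other. The gene most like Pdha1 was Sdha (0.048, against 0.168), which encodes a subunit of succinate dehydrogenase, and Idh3b, a subunit of the citrate cycle's isocitrate dehydrogenase, was the fifth nearest (0.061). Among Pdk1's nearest were Rmnd5a, Kif1c, Synm and Zfp106 (0.074 to 0.084, against 0.27) and Pdk2's were Bag6, Med25, Dctn1, Ogdh and Tmem63b (0.061 to 0.083, against 0.20).

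The pathways around the complex gave mixed counts on refeeding averaged over genotypes, where 1821 of 17028 genes were called higher and 1700 lower. Of 14 genes for pyruvate entry and the partners of the complex, 2 rose and 2 fell (median -0.07). Dld, the dihydrolipoamide dehydrogenase that completes the complex, fell by 0.33 ± 0.06 (edgeR adjusted p = 0.00136). Pcx, the pyruvate carboxylase that takes pyruvate to oxaloacetate instead, rose by 0.63 ± 0.15 (edgeR adjusted p = 0.00531). Of the alanine aminotransferases, Gpt rose by 0.22 ± 0.07 and Gpt2 fell by 0.27 ± 0.09 (edgeR adjusted p = 0.0296 and 0.0326).

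Of 9 genes of the sister dehydrogenase complexes, 0 rose and 4 fell (median -0.21). Bckdha, of the branched-chain ketoacid dehydrogenase, fell by 0.42 ± 0.06 (edgeR adjusted p = 0.000115), and its phosphatase Ppm1k by 0.29 ± 0.08 (0.00985). Of 14 factors reported to act on Pdk4, 2 rose and 5 fell (median -0.12). Klf15 fell by 0.61 ± 0.13, Ppara by 0.56 ± 0.13, Foxo3 by 0.54 ± 0.10 and Foxo4 by 0.39 ± 0.09 (edgeR adjusted p = 0.00246, 0.00601, 0.000961 and 0.00501). These are named for their smallest p, and the 2 that rose are not named. In WT alone Foxo3 passed, and Klf15, Ppara and Foxo4 did not (edgeR adjusted p = 0.025, 0.051, 0.107 and 0.26). In mCK-hLPL Foxo3, Klf15 and Foxo4 passed and Ppara did not (edgeR adjusted p = 0.0339, 0.0471, 0.0159 and 0.0573).

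Of 17 genes for using fatty acids in place of glucose, 0 rose and 15 fell (median -0.38), the largest share of the 6 lists. Separately, 8 fell in WT and 11 in mCK-hLPL, where 2.25% and 4.03% of all genes tested were called lower. Mlycd, the malonyl-CoA decarboxylase that relieves the brake on fatty acid entry into mitochondria, fell by 0.88 ± 0.07 (edgeR adjusted p = 5.43e-07). Acot2 fell by 1.14 ± 0.11 (edgeR adjusted p = 2.69e-06), with its near-identical neighbour Acot1 at -1.12, whose reads cannot be separated with certainty. Of 15 genes of glycolysis down to pyruvate, 2 rose and 3 fell (median -0.10), with Pfkl up by 0.61 ± 0.14 and Pfkm, the muscle phosphofructokinase, down by 0.28 ± 0.07 (edgeR adjusted p = 0.00473 and 0.00655). Of 9 genes that use acetyl-CoA, 3 rose and 4 fell (median -0.14). Acly, which makes cytosolic acetyl-CoA from citrate, rose by 2.90 ± 0.30, the citrate carrier Slc25a1 by 1.86 ± 0.27 and Acss2 by 1.15 ± 0.12 (edgeR adjusted p = 5.23e-06, 0.000133 and 6.19e-06), while mitochondrial Acss1 fell by 0.58 ± 0.09 (0.000235).

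By the GENCODE M21 annotation on GRCm38, Pdk4 lies at chr6:5483351-5496309 and Pdk2 at chr11:95026258-95041354, both on the minus strand, and Pdha1 at chrX:160122209-160138413, minus strand. Pdk2 overlaps the antisense gene Gm11513, which was at 0 CPM in every library, and Pdha1 overlaps Map3k15, which reached 1.25 CPM at most. The strand setting of the counting is not given, and how many reads these pairs of genes share was not measured.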

How the data were processed

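RNA of gastrocnemius was sequenced in 19 libraries. The authors deposited 1 table named as raw counts per gene and library, although its sheet label points to variance-stabilised, normalised values. All values are whole numbers and the library totals differ, so they were used as raw counts. The submitters' processing notes name DESeq2 1.28.1 and Salmon 0.14.2 with the builds GRCm38 and mm10, without saying what each was used for. No count was recorded for 19516 of 54176 genes, and 24 symbols that a spreadsheet had turned into dates held 0.063% of counts and are not named.

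Genes were kept by edgeR 4.0.16 filterByExpr (minimum count 10, minimum total 15), scaled by TMM and tested with its quasi-likelihood functions (glmQLFit, glmQLFTest) under R 4.3.3, with all 19 libraries in 1 model of group means and 7 contrasts. P-values are two-sided, adjusted by Benjamini-Hochberg over all 17028 genes. SE is the log2 difference over the square root of F. CPM uses TMM-scaled library sizes. The test was checked on simulated data. Alternatives used DESeq2 1.42.0, limma 3.58.1, other scaling, no filter, fits that drop each library in turn, and a replicate block.

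Members and lists were chosen with earlier results of these data known. All 10 members are named, and of each other list up to 4 called genes with the smallest p on refeeding averaged over genotypes. Replicates were distinct: the smallest chi-square per degree of freedom of 36 pairs was 15.8. A gene that the rule for nearest genes also picked is not reported here.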

Additional observations from a re-analysis of the deposited data

How the results depend on the processing

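No direction of a called value of the 10 members reversed under any alternative run. The number of members called was 1 in WT, 2 in mCK-hLPL and 4 averaged over genotypes, and 0 in each genotype comparison and the interaction under every alternative. The share of all genes called (4.88%, 8.15% and 20.7%) stands beside each change. In WT it was 0 with the replicate block (all genes 0.179%), 0 in the 17 numbered libraries without it (0.931%), 0 without the lymphocyte-marked libraries (1.84%), 0 without the liver-marked ones (2.7%) and 0 with the muscle marker covariate (2.2%). Leaving out 1 library gave 0 to 1 (1.49% to 6.07%). In mCK-hLPL it was 0 without the filter (2.29%), 1 with quality weights in limma voom (9.91%), 0 with the replicate block (2.71%), 0 with the groups compared alone (3.92%), 0 without the lymphocyte libraries (3.55%), and 0 with the covariate (0.746%). It rose to 3 with DESeq2 (11.8%) and without the liver libraries (9.19%). Leaving out 1 library gave 0 to 3 (3.99% to 10.1%), with 3 called without mCK-hLPL_REL replicate 1 (8.55%) or replicate 4 (10.1%). Averaged over genotypes it was 1 with the replicate block (5.56%), 2 in the 17 numbered libraries (12.2%) and 2 without the liver libraries (16.5%). It was 3 without the filter (7.99%), 0 with the covariate (5.83%), and 2 to 4 when 1 library was left out (15.2% to 21.5%). Where fewer members were called than in the main fit, the share over all genes was also lower, except with quality weights. Where 3 were called in mCK-hLPL, that share was higher than in the main fit. The cause of these changes was not tested, and the fits that leave libraries out also hold fewer of them.

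The 21 same-number pairs of libraries had correlations of -0.356 to 0.211 (median 0.0467), 7 of them over 0.1. The median of 84 different-number pairs was -0.0138, and 2 of 17 libraries correlated best with their own number. Whether the replicate numbers mark pairs or batches was not tested. With the replicate block the averaged difference of Pdha1 had an edgeR adjusted p of 0.184, and without the filter that of Pdk2 was 0.0654. The sets without lymphocyte or liver libraries, the 17 numbered libraries and the covariate were chosen after seeing the data. Depth limits Pdk3, at 16 to 67 counts.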
